A study of Homo sapiens with 5 samples.

Results

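The 8 genes described here make the sugar donor for O-GlcNAc (GFPT1, GNPNAT1, PGM3 and UAP1), remove O-GlcNAc (MGEA5, now named OGA) or oxidise methylated cytosine in DNA (TET1, TET2 and TET3). They were followed through the deposited ChIP-seq peaks with any base within 5 kb of 1 given hg19 start per gene, which were 27 of 194759 peaks: 15 of 94237 ASXL1 peaks, 10 of 78825 O-GlcNAc peaks and 2 of 21697 FOXK1 peaks. In ChIP-seq an antibody pulls down fragments that carry its target, and a peak is a stretch with more reads than the input chromatin.

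Flp-In HEK293 T-REx cells were the source of all chromatin. They are a human line of embryonic kidney origin with a recombination site for transgenes and a tetracycline repressor, and the labels name no transgene or treatment. Cells were grown in medium with 4.5 g/l glucose, 10% FCS and 2 mM L-glutamine, and were fixed with 1% formaldehyde for 10 min. Each antibody had 1 library, and the series also holds 2 input libraries. ASXL1 and O-GlcNAc came from chromatin preparation 63 and FOXK1 from preparation 62, so FOXK1 and preparation cannot be told apart. No difference has a replicate error and no test was possible. The read depth of the libraries is unknown, so a gene without a listed peak is not shown to lack the target.

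The hexosamine pathway turns glucose and glutamine into UDP-GlcNAc. GFPT1 makes glucosamine 6-phosphate and is the rate-limiting enzyme, GNPNAT1 acetylates it, PGM3 moves the phosphate, and UAP1 joins the sugar to UDP. A single transferase, OGT, places the sugar on serine and threonine residues of nuclear and cytoplasmic proteins, and O-GlcNAcase, the product of MGEA5, takes it off. TET proteins oxidise 5-methylcytosine, which starts its removal, and are known partners of OGT. ASXL1 is a cofactor of the H2A deubiquitinase BAP1, and FOXK1 is a forkhead transcription factor found with BAP1.

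Promoter sequences from RefSeq (GRCh38.p14) are shown for the genes that set the patterns apart: MGEA5 and TET1, the genes with a FOXK1 peak; TET2, which has forkhead letters and no FOXK1 peak nearby; and UAP1, with a high-scoring ASXL1 peak and no listed peak of the other targets within 5 kb. Each runs 5′ to 3′ from 250 bases before an annotated start to 20 bases after it, and capitals mark the forkhead core TAAACA. For TET1, TET2 and UAP1, which have several entries, the most upstream one is given.
MGEA5, chr10:101818425-101818694, minus strand: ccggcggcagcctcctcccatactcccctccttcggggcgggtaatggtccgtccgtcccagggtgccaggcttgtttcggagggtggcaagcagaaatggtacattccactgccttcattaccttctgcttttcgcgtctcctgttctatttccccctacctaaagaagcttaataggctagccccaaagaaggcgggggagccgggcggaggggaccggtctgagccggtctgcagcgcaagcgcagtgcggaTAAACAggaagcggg
TET1, chr10:68560087-68560356, plus strand: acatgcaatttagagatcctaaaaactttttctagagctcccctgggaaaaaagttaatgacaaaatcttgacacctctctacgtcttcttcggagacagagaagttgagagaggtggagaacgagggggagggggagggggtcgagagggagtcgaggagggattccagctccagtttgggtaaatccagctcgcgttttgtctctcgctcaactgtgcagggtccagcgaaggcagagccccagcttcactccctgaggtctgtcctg
TET2, chr4:105145625-105145894, plus strand: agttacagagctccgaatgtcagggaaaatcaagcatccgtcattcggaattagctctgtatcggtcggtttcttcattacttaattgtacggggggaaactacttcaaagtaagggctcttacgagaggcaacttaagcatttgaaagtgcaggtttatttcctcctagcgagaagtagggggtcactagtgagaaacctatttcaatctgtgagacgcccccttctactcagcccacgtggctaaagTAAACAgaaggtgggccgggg
UAP1, chr1:162561281-162561550, plus strand: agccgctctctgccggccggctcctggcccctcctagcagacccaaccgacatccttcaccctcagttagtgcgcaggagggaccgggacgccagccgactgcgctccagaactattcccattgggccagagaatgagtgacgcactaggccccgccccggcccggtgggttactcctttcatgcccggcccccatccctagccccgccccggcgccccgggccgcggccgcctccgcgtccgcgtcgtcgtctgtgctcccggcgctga

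The forkhead core was searched as TAAACA on both strands (TGTTTA on the other) in windows of 300 bases, from 250 before to 50 after the start. All 8 genes matched the RefSeq table, with 15 entries, and 2 entries held the letters. In MGEA5 they began 5 bases after the first transcribed base, and in TET2 1 base before it. Of all 35116 entries in the table, 12.3% held them, so 2 of 15 (13.3%) is near the share of all promoters. By gene, and as a description only, MGEA5 carried the letters and a FOXK1 peak, TET2 the letters without a listed FOXK1 peak, and TET1 a FOXK1 peak without the letters in its 3 entries. The starts of those 3 entries spread over 40.1 kb, so not all of them lie near the TET1 peaks described below.

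The promoters also differed in their CpG content. The UAP1 entries held 32 to 48 CG dinucleotides per 300 bases and GFPT1 held 47, against a median of 14 over all entries. GNPNAT1 held 37, the PGM3 entries 24 and 32, and the TET3 entries 33 and 45, so high counts were not limited to UAP1 and GFPT1. MGEA5 held 20, the 3 TET1 entries 6 to 11, and the 2 TET2 entries 13 and 35. The median over the entries of the 8 genes was 32. TET1 was thus the only gene of the 8 with every entry below the median of the table, though its entries spread over 40.1 kb. These positions are of another build than the peaks and were not placed on it. Other genes of these pathways, from lists chosen by their textbook role, were not analysed here for peaks, since their hg19 starts were not at hand. Of 12 other hexosamine and O-GlcNAc genes with a promoter entry, 1 held TAAACA (NAGK, a kinase of N-acetylglucosamine, named after the result was seen). Of 10 other genes of DNA methylation and demethylation, 0 did.

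Within 5 kb of the given starts, ASXL1 peaks were listed at all 8 genes, O-GlcNAc peaks at 6 and FOXK1 peaks at 2. The start given for TET3 is in doubt, as described below. As background, chromosomes 1 to 22, X and Y were tiled with 309382 windows of 10001 bp, the width of the window around each start. Of these, 19.6% held an ASXL1 peak, 20.5% an O-GlcNAc peak and 6.26% a FOXK1 peak. Such windows are mostly far from gene starts, and the share over all gene starts was not analysed here. Of the 60575 tiled windows with an ASXL1 peak, 46.5% also held an O-GlcNAc peak and 19.5% a FOXK1 peak, against 6 and 2 of the 8 genes. The FOXK1 count thus lay near that background, and the O-GlcNAc count was above it, in windows chosen without regard to ASXL1 score. Over 8 genes neither difference was tested.

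By role, the 4 enzymes of the hexosamine pathway had ASXL1 peaks at 4, O-GlcNAc peaks at 2 (GNPNAT1 and PGM3) and FOXK1 peaks at 0. The 3 TET genes had ASXL1 peaks at 3, O-GlcNAc peaks at 3 and a FOXK1 peak at 1 (TET1). Those of TET3 were low-scoring and lay around a start that may not be a TET3 promoter. MGEA5 had all 3. With so few genes per role, these counts describe the genes and do not compare the roles.

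**Figure D1:**
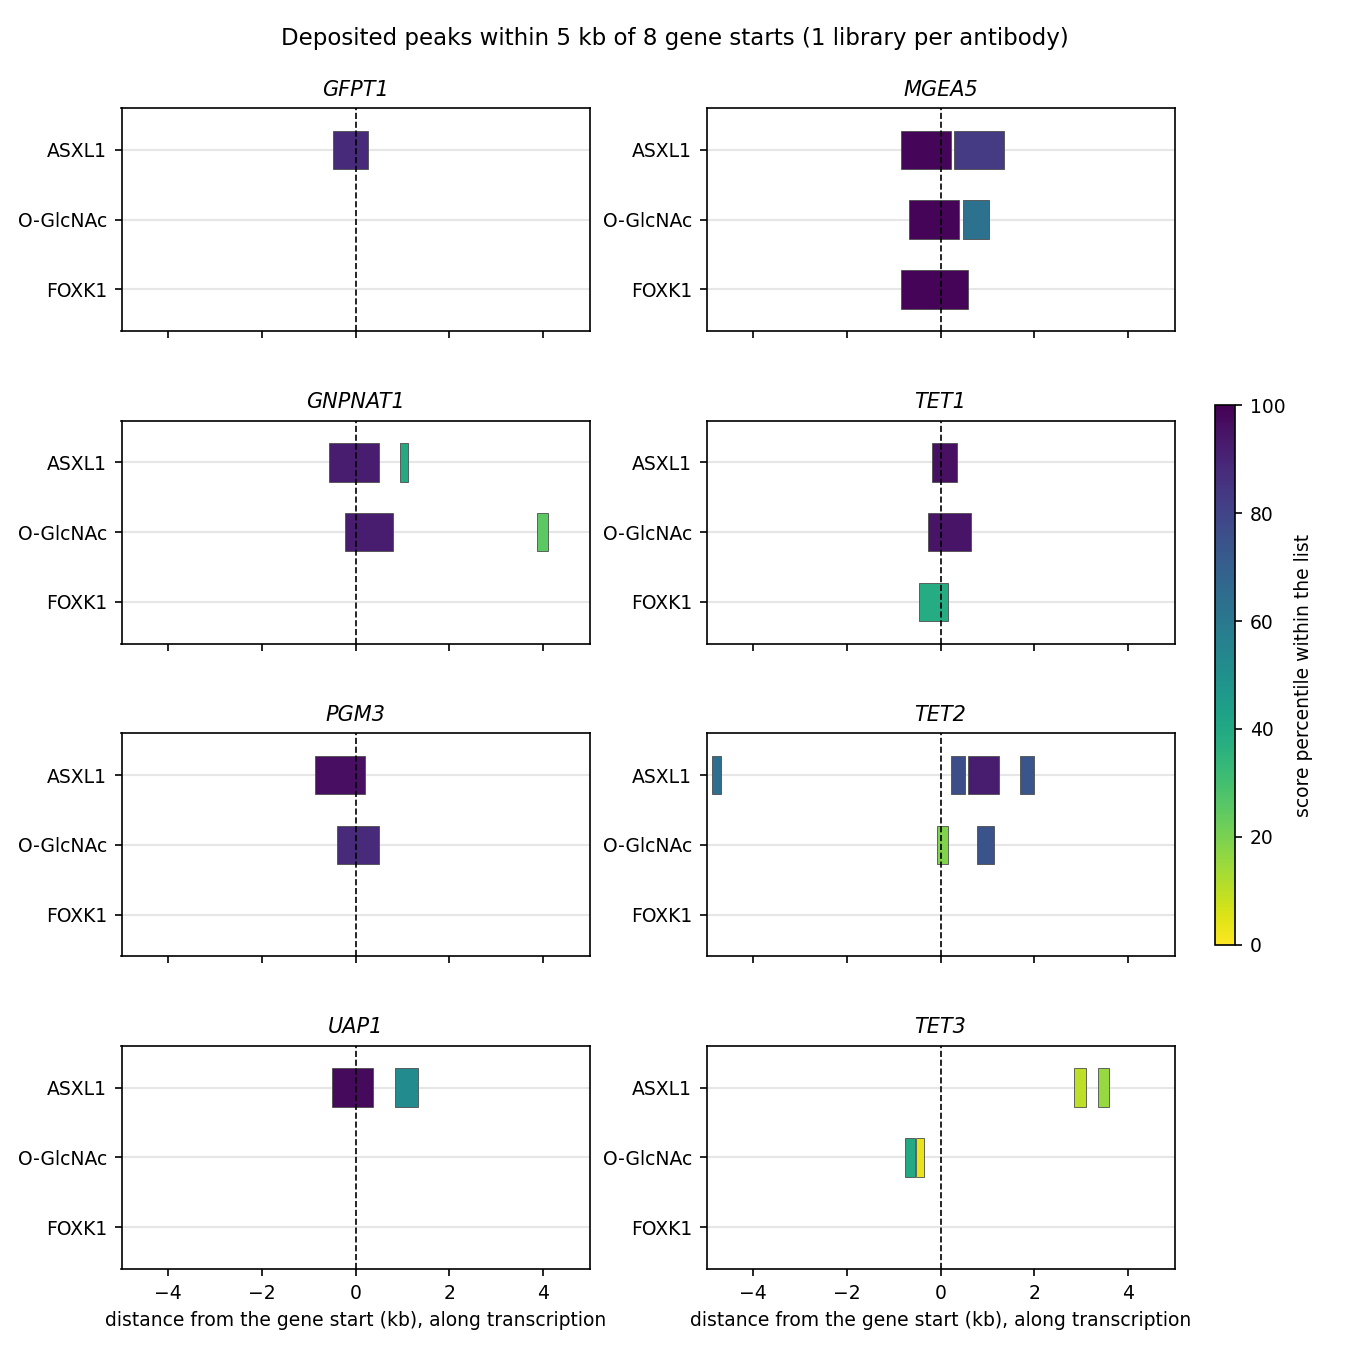
Deposited peaks within 5 kb of each gene start, drawn along the direction of transcription (x axis, kb; dashed line, the start), with 1 row per antibody library; the colour is the percentile of the peak's score within its own list. Dark ASXL1 blocks lie over the starts of GFPT1, GNPNAT1, PGM3, UAP1, MGEA5 and TET1, while FOXK1 blocks appear at MGEA5 and TET1 alone.

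The deposited score of each peak comes from the authors' peak caller, and scores were ranked only within a list. The percentile below is the share of a list's peaks that scored lower, with ties counted at mid rank. The highest-scoring ASXL1 peak of a gene was among the highest-scoring 10% of the ASXL1 list at 6 of the 8 genes. Over all 8 genes the highest-scoring ASXL1 peaks had a median width of 809 bp, from 242 bp at TET3 to 1079 bp, against a median of 269 bp for the whole list. The highest-scoring O-GlcNAc peak was in the highest 10% of its list at 3 of 6 genes, with a median width of 908 bp against 231 bp for the list. A highest score is taken over up to 4 peaks per gene and list, so these percentiles and widths are not those of an average peak. How many other gene starts have a highest-scoring peak of that rank or width was not analysed here.

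**Figure D2:**
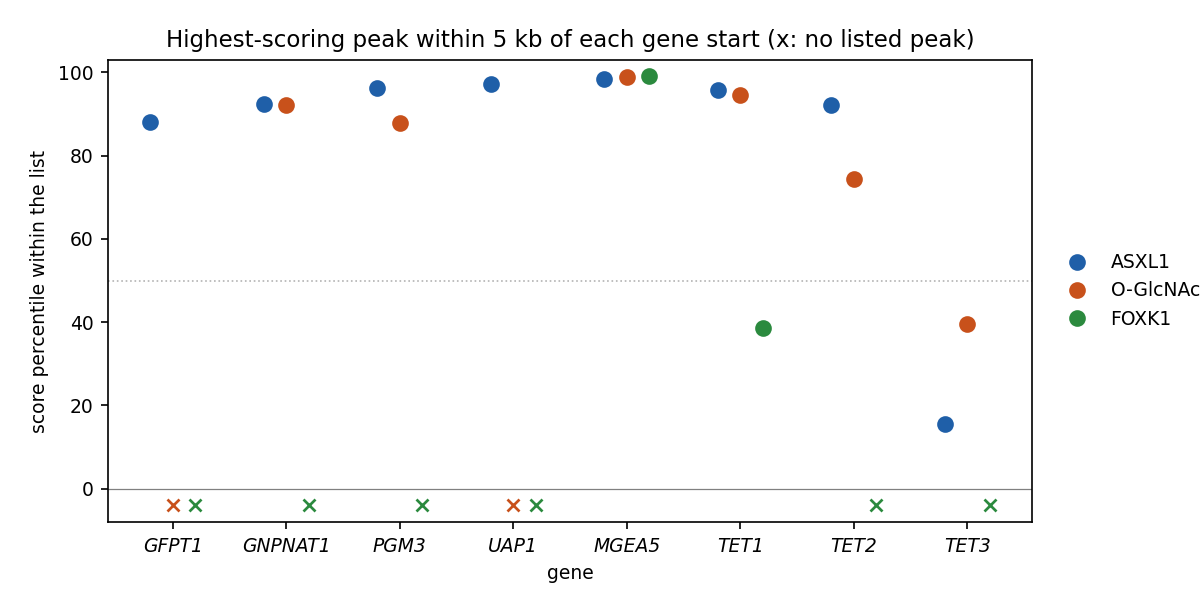
Score percentile within its own list (y axis, %) of the highest-scoring peak within 5 kb of each gene start (x axis), 1 point per gene and library; crosses below 0 mark genes with no listed peak. ASXL1 lies between 88.2 and 98.5 at 7 genes and at 15.7 for TET3, and MGEA5 is the only gene with all 3 points above 98.

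GFPT1, at the head of the pathway, had the plainest window. A single ASXL1 peak lay over the start (chromosome 2, 69614128 to 69614865, hg19; score 354, percentile 88.2), from 479 bp upstream to 258 bp downstream of it. No other ASXL1 peak lay within 20 kb. The nearest O-GlcNAc peak was 121 kb away and the nearest FOXK1 peak 146 kb away, both downstream.

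At GNPNAT1 the ASXL1 peak over the start scored 603 (chromosome 14, 53257882 to 53258946, percentile 92.4). An O-GlcNAc peak that scored 243 (percentile 92.3) overlapped it by 728 bp. Each list held 1 further, weaker peak in the window, an ASXL1 peak 947 bp downstream of the start (score 66.8) and an O-GlcNAc peak 3868 bp downstream (score 57.3). FOXK1 had no peak nearer than 60.6 kb. Neighbours were read in RefSeq (GRCh38.p14) by name only, as genes with any base within 5 kb of a member's outermost start there, and were not placed on hg19. For GNPNAT1 it was LOC105370500, a long noncoding RNA gene. At 6 of the 8 genes another gene of either kind, coding or noncoding, lay that near, and peaks there may not belong to the named gene alone. For TET3 it was DGUOK-AS1, a long noncoding RNA gene, near a RefSeq start that may not be the given one.

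PGM3 had 1 peak of each of 2 lists, both over the start. The ASXL1 peak scored 1072 (chromosome 6, 83902803 to 83903881, percentile 96.2), and the O-GlcNAc peak scored 152 (percentile 88.0) and shared 609 bp with it. Its neighbour in RefSeq was the protein-coding gene RWDD2A. FOXK1 came no nearer than 21.8 kb.

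UAP1, which makes the final UDP-GlcNAc, had the highest ASXL1 score of the 4 pathway enzymes and no O-GlcNAc peak in the window. The ASXL1 peak lay over the start (chromosome 1, 162530792 to 162531670; score 1317, percentile 97.3), followed by a weaker one 842 bp downstream (score 76.5). The nearest O-GlcNAc peak was 13.1 kb upstream with a score of 59.7, and the nearest FOXK1 peak was 211 kb away. The RefSeq neighbour of UAP1 was UAP1-DT, a divergent noncoding transcript.

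MGEA5 stood out in all 3 lists. The ASXL1 peak over its start (chromosome 10, 103577987 to 103579065) scored 1755, rank 1411 of 94237. The O-GlcNAc peak over the start (103577832 to 103578902) scored 1274, rank 793 of 78825. The FOXK1 peak (103577640 to 103579059) scored 773, rank 180 of 21697, and was 1420 bp wide against a list median of 437 bp. The gene that encodes the enzyme removing O-GlcNAc thus had the highest score of the 8 genes in each list.

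The MGEA5 peaks belonged to a region of 2198 bp with 5 peaks, since ASXL1 and O-GlcNAc each had a further peak just downstream of the start. Those scored 207 for ASXL1 and 75.1 for O-GlcNAc. Across the genome 6247 regions were held by all 3 lists, and by the sum of the 3 score ranks MGEA5 was number 31 of them, within the highest 0.496%. Of the tiled windows, 2.88% held a peak of each list, against 2 of the 8 genes. In RefSeq MGEA5 had KCNIP2-AS1, a long noncoding RNA gene, as neighbour.

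TET1 was the other gene with all 3 targets, at other relative strengths. ASXL1 scored 998 (chromosome 10, 70319927 to 70320476, percentile 95.8) and O-GlcNAc scored 357 (percentile 94.6), and the O-GlcNAc peak covered the whole ASXL1 peak. FOXK1 scored 66.7, at percentile 38.5 of its list and below the list median of 76.3. The FOXK1 peak reached from 455 bp upstream to 161 bp downstream of the start and shared 352 bp with the ASXL1 peak. The TET1 region was number 2598 of the 6247, and at a score of at least 100 its FOXK1 peak was no longer listed.

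Of all FOXK1 peaks, 28.8% overlapped both other lists, and of the 472 that scored at least 500, 74.8% did. Both FOXK1 peaks of the 8 genes overlapped both, the MGEA5 peak from the second of these classes and the TET1 peak from the lower scores. With 2 peaks this is a description only.

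At TET2 no ASXL1 peak lay over the given start. ASXL1 peaks followed it at 224 bp (score 139), 594 bp (score 595) and 1706 bp (score 123) downstream, and a further one lay 4696 bp upstream (score 93.4). The strongest (chromosome 4, 106067626 to 106068284, percentile 92.3) contained an O-GlcNAc peak of 384 bp that scored 90.5. A weaker O-GlcNAc peak lay over the start itself, with a score of 55.4. RefSeq lists TET2 starts 1001 bp apart in GRCh38.p14; which of them the hg19 start stands for was not settled. Its RefSeq neighbour was LOC124900868, annotated as protein-coding. The nearest FOXK1 peak was 198 kb away, although the letters TAAACA span the start in the sequence printed above.

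Around the given start, the strongest TET3 peak scored below that of the other 7 genes for ASXL1, and below that of the other 5 genes with a peak for O-GlcNAc. That start may belong to an older gene model and may not be a TET3 promoter, which could not be checked without an hg19 annotation, so these values describe the position and perhaps not the promoter. Its 2 ASXL1 peaks lay 2851 and 3366 bp downstream of the given start and scored 53.9 and 55.5, at percentiles 10.1 and 15.7. Its 2 O-GlcNAc peaks lay 554 and 357 bp upstream and scored 62.3 and 51.1, at percentiles 39.5 and 3.75. No ASXL1 peak of TET3 overlapped an O-GlcNAc peak in the window. A FOXK1 peak lay outside it, 9568 bp upstream (score 114).

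Because of that doubt, peaks within 100 kb of the given TET3 start were also read. There were 2 FOXK1 peaks, centred 45.8 kb (score 51.1) and 9.71 kb (score 114) upstream, and neither overlapped a peak of another list. There were also 16 ASXL1 peaks, of which 5 overlapped an O-GlcNAc peak, 3 of them upstream and 2 downstream. The upstream ones lay 64.1 kb (ASXL1 score 74.6, O-GlcNAc score 56.4), 61.5 kb (134 and 75.3) and 43.6 kb (135 and 56.0) from the start. The downstream ones lay 74.2 kb (477 and 390.2) and 96.3 kb (99.9 and 56.2) from it. The highest ASXL1 score without an O-GlcNAc peak was 238, at 64.8 kb upstream. The 3 upstream places lie 2.61, 17.9 and 20.5 kb from each other, and the 2 TET3 entries of RefSeq are 17.8 kb apart in GRCh38.p14. That 1 of the 3 spacings is close to it was noticed after the values were seen, and positions were not carried between builds, so which of these places, if any, belong to TET3 was not settled here.

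Positions were then compared across genes along the direction of transcription. The highest-scoring ASXL1 peak lay over the start at 6 of the 8 genes, all but TET2 and TET3. How often this holds over all gene starts was not analysed here, so the count is not shown to be particular to these genes. At 5 genes (GNPNAT1, PGM3, MGEA5, TET1 and TET2) the highest-scoring ASXL1 peak overlapped the highest-scoring O-GlcNAc peak, by 384 to 916 bp. In each of the 5 the centre of the O-GlcNAc peak lay downstream of that of the ASXL1 peak. The offset was 320 bp at GNPNAT1, 378 bp at PGM3, 159 bp at MGEA5, 115 bp at TET1 and 38.5 bp at TET2. Both lists come from preparation 63, and which input each was called against is not given in the sources used here. Peak centres are midpoints of the listed intervals and not summits, the chromatin fragments averaged 150 to 400 bp, and the offset over other genes was not analysed here. The FOXK1 peak centre lay downstream of the ASXL1 centre at MGEA5, by 177 bp, and upstream of it at TET1, by 232 bp.

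To read the genes without O-GlcNAc against ASXL1 peaks of like score, the whole ASXL1 list was used. Of all ASXL1 peaks, 22.4% overlapped an O-GlcNAc peak and 10.5% a FOXK1 peak, against 5 and 2 of the 8 highest-scoring ASXL1 peaks of the genes. The share in O-GlcNAc rose with the score, to 79.3% for the 12547 ASXL1 peaks that scored at least 300 and to 92.3% (95% Wilson interval 91.5 to 93.1, counting error only) for the 3908 that scored at least 1000. In that last class 3 of the genes were found: PGM3 and MGEA5 with an O-GlcNAc peak, and UAP1 without. UAP1 was thus 1 of 299 ASXL1 peaks of that strength with no listed O-GlcNAc partner. GFPT1, with a score of 354, lay in the class of scores from 253 to 442, of which 59.3% overlapped an O-GlcNAc peak, so a peak without a partner was more common there. For FOXK1 the share in the genes' own score classes was 24.0% to 34.6% at the 7 genes other than TET3, and 3.42% at TET3. For O-GlcNAc it was 78.8% at GNPNAT1 and TET2, 91.5% at PGM3, UAP1, MGEA5 and TET1, and 6.22% at TET3. Averaged over the 8 genes, the class shares were 73.6% for O-GlcNAc and 27.4% for FOXK1, against 62.5% and 25% of the genes. Neither count was thus above the share of ASXL1 peaks of like score.

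**Figure D3:**
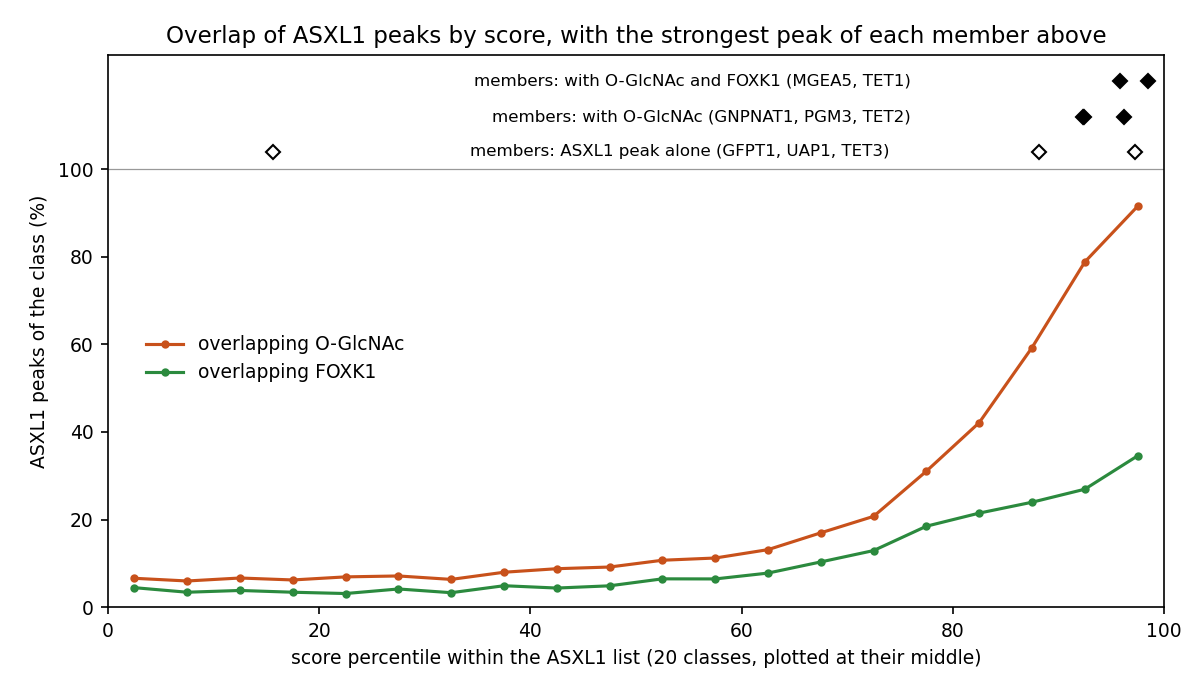
Share of ASXL1 peaks (y axis, %) that overlapped an O-GlcNAc or FOXK1 peak, in 20 classes of ASXL1 score of 5% each (x axis, percentile); diamonds above 100 give the percentile of the highest-scoring ASXL1 peak of each of the 8 genes, filled where it overlapped O-GlcNAc. The O-GlcNAc share goes from 6.60% in the lowest class to 91.5% in the highest, where UAP1 is the gene with an open diamond.

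Beyond 5 kb the genes differed in how many further ASXL1 peaks surrounded them. Between 5 and 20 kb from the start, PGM3 had 8 ASXL1 peaks and GNPNAT1 had 6, MGEA5 and TET1 had 3 each, UAP1 and TET3 had 1 each, and TET2 and GFPT1 had 0. Those at PGM3 scored 53.8 to 132 and those at GNPNAT1 56.6 to 89.7. The one at TET3 scored 68.1, above the ASXL1 peaks within 5 kb of its given start. MGEA5 had a broad shared place upstream, where an ASXL1 peak of 1083 bp (score 79.4) lay 11.8 kb from the start and overlapped an O-GlcNAc peak of 978 bp (score 86.9). Just inside the 5 kb limit were the TET2 ASXL1 peak at 4696 bp and the GNPNAT1 O-GlcNAc peak at 3868 bp. Just outside it were the MGEA5 O-GlcNAc peak at 5600 bp (score 62.5) and the PGM3 ASXL1 peak at 5839 bp (score 63.6).

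**Figure D4:**
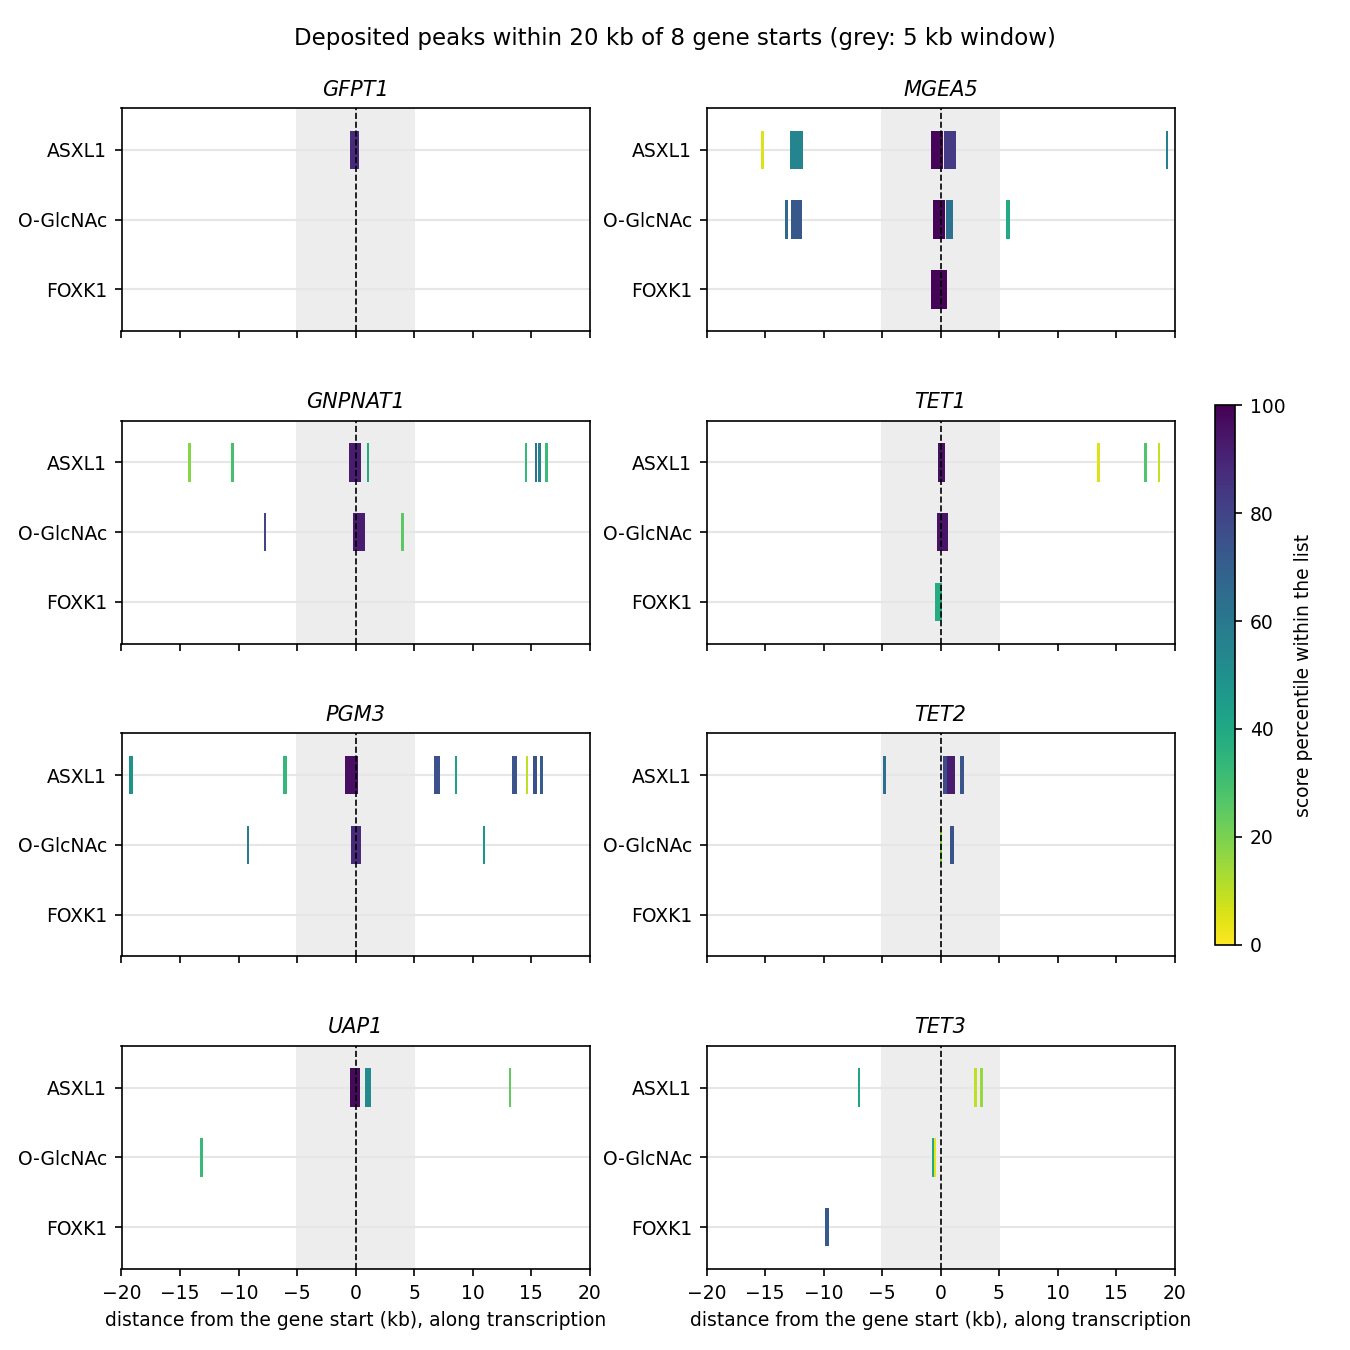
Deposited peaks within 20 kb of each gene start, along transcription (x axis, kb; dashed line, the start; grey, the 5 kb window), 1 row per antibody library, coloured by score percentile within the list. PGM3 and GNPNAT1 are flanked by several lower-scoring ASXL1 peaks, whereas GFPT1 has a single peak of any list.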

How the data were processed

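Each of the 3 deposited peak lists came from a single library and gave a position and a score for every peak. The deposited score is the one the authors' peak caller gave. The submitters' processing notes name Bowtie2 2.0.0, MACS 1.4 and the build hg19, and the deposited peak names name MACS; settings, read filters and depth are not given in the sources used here. Scores began at 50. The peak counts near genes depend on that limit and on depth.

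Each list was read with Python 3.11.15 and pandas 2.3.3. A peak belonged to a gene when any base lay within 5 kb of the given start. Peaks of different lists were shared when they overlapped by at least 1 bp. Wilson intervals came from scipy 1.17.1. The overlap functions were tested on simulated lists. The gene strand and promoter sequences came from RefSeq (GRCh38.p14) and no coordinates were carried between builds. All 8 genes were named by rule. The genes, lists and settings were chosen with earlier results of these data known. Inputs were not analysed here. Alternatives were windows of 1 and 10 kb, peak centres in the window, the 10000 highest-scoring peaks, a score minimum of 100, 2 other overlap rules, and ranks on chromosomes 1 to 22, X and Y.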

Additional observations from a re-analysis of the deposited data

How the results depend on the processing

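Windows of 1 and 10 kb, membership by the peak centre, sharing by centres no more than 500 bp apart, and sharing by 50% of the shorter peak kept each count within 1.5 times its value, for example 7 genes with an ASXL1 peak at 1 kb and 3 with a FOXK1 peak at 10 kb. Shorter lists changed more, as they must. A score of at least 100 left 4 O-GlcNAc peaks near the 8 genes, 1 FOXK1 peak, 1 gene with a FOXK1 peak (MGEA5) and 1 gene with a region of all 3 lists. The 10000 highest-scoring peaks of each list left 6 ASXL1 and 4 O-GlcNAc peaks, 1 FOXK1 peak, 1 gene with a FOXK1 peak and 1 gene with a region of all 3 lists. The other windows and the peak centre picked the same highest-scoring peak wherever a gene had a peak of a list within 5 kb, so its percentile was the same by construction, except for ASXL1 at TET3. That gene had no ASXL1 peak at 1 kb, and its ASXL1 percentile moved to 41.7 with a window of 10 kb, which also added its FOXK1 peak (percentile 72.0). Ranks on chromosomes 1 to 22, X and Y shifted no percentile by more than 0.0549 points. Other annotated starts and the background over all gene starts were not run, since no annotation of hg19 was used. No paired analysis was possible because the antibodies had single libraries, and none could be omitted in turn. Unknown depth limits every statement on a missing peak.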
